A study of Homo sapiens with 9 samples.

Results

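The nuclear-encoded subunits of the respiratory chain and of ATP synthase were measured in SaOS2, an osteoblast-like line from a human osteosarcoma. The cells expressed antisense RNA against APC when doxycycline was added; APC is a scaffold protein that helps mark beta-catenin for degradation. Members were all genes whose probe symbols name a complex I subunit (NDUFA, NDUFB, NDUFC, NDUFS and NDUFV genes), a succinate dehydrogenase subunit, a complex III subunit (UQCR genes and CYC1), a complex IV subunit (COX4 to COX8 genes), an ATP synthase subunit (ATP5F, ATP5M and ATP5P genes) or cytochrome c (CYCS). This gave 82 of 20046 genes with a named probe, read by 109 probes. There were 3 groups of 3 arrays, one array per sample. Recovery cells had doxycycline at 1 µg/ml for 3 days and were then grown for 3 days without it, doxycycline cells were harvested after the same 3 days of drug, and control cells were untreated. Per the labels, all groups carried the inducible antisense system and grew in medium with G418 and Hygromycin. No group had doxycycline without that system, so the drug and the antisense RNA cannot be told apart. The labels do not say whether replicates were separate cultures or whether the line was 1 clone, so the p-values here reflect array-to-array spread that may be technical.

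Electrons from NADH enter the chain at complex I and those from succinate at complex II, pass through ubiquinone to complex III, and are carried by cytochrome c to complex IV, where oxygen is reduced. Complexes I, III and IV pump protons across the inner mitochondrial membrane, and complex V, the ATP synthase, uses that gradient to make ATP. The subunits come from both genomes: the mitochondrial genome encodes a few core proteins, and the nuclear genes described here encode the rest. Doxycycline is a tetracycline antibiotic that also slows translation on mitochondrial ribosomes, which make the mitochondrially encoded subunits. Of the 13 mitochondrially encoded subunit genes, 0 had a kept probe, so these data show only the nuclear side.

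The members divided into 35 genes of complex I, 3 of complex II, 9 of complex III, 17 of complex IV, 17 of complex V and CYCS. A probe was kept when its detection p-value was under 0.05 on at least 3 arrays, and 74 members passed: 33, 3, 9, 11 and 17 genes of complexes I to V, and CYCS. The other 8 were detected on 0 of 9 arrays. Of these, 6 were the tissue-restricted forms COX4I2, COX6A2, COX6B2, COX7A1, COX7B2 and COX8C, whose partner forms COX4I1, COX6A1, COX6B1, COX7A2, COX7B and COX8A were detected on every array. The remaining 2 were NDUFB1 and NDUFS6, accessory subunits of complex I. Among the 74, 72 were detected on all 9 arrays. NDUFA5, an accessory subunit of complex I, was detected on 1 recovery, 0 doxycycline and 2 control arrays, and NDUFB4, another, on 1, 3 and 3. Each gene is represented by its brightest kept probe, so levels of different genes are not compared. Probe and protein sequences were not used here, and probes of genes with near-identical copies elsewhere in the genome (UQCRH and UQCRHL, and UQCRB, ATP5F1E, CYCS and SDHA, which have pseudogene copies) may read those copies too.

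An array detected 20141 to 21317 of its 47322 probes, and 12245 genes were tested. APC itself was read by 1 probe near background, detected on 3 recovery, 3 doxycycline and 1 control arrays; its level was 5.41 ± 0.12, 5.42 ± 0.02 and 5.29 ± 0.34 log2 units (SD, n = 3 each) in recovery, doxycycline and control cells. Limma gave adjusted p = 0.623 for doxycycline against control, and the probe's strand was not analysed here, so it does not check the labels. Doxycycline replicate 2 stood apart from the other arrays, at -47.75 on the second principal component against 5.99 and -10.45 for doxycycline replicates 1 and 3, and counts, medians and the genes it moved most are also given without it. Osteoblast markers were present, with 7 of 9 measured, although SPP1 and BGLAP were not. Of markers of other cell types, PTPRC, LYZ, KRT18, KRT19, CDH1, PECAM1, CDH5, KDR, MYH7 and DES were detected on 0 arrays. CD68, a lysosomal glycoprotein used as a macrophage marker, and CD14 were the measured 2 of 4 haematopoietic markers. Their summed intensity was 3356 to 3975 in recovery, 1146 to 1462 in doxycycline and 683 to 772 in control cells, and the 3 groups did not overlap. The 2 genes did not move alike. CD68 differed from control by 2.49 log2 units in recovery and 0.91 in doxycycline cells, and CD14 by 0.25 and 0.17. Without doxycycline replicate 2 the doxycycline differences were 0.84 for CD68 and -0.04 for CD14. The muscle markers ACTC1 and CKM, 2 of 4, summed to 837 to 993 in recovery, 1596 to 1904 in doxycycline and 1783 to 1979 in control cells. EPCAM was detected among the epithelial markers, 1 of 4, and 0 of 3 endothelial markers were. The intensity of EPCAM was 1301 to 1386 in recovery, 1518 to 2430 in doxycycline and 1391 to 1525 in control cells. Limma called it lower in recovery against doxycycline cells, at -0.50. Without doxycycline replicate 2 it was not called there, at -0.33 (adjusted p = 0.0661). The part of these markers in the results was not tested, and in such bulk samples fewer cells of a type and less RNA per cell cannot be told apart.

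The promoters of 4 members are shown as those most discussed below: CYCS, COX7B and ATP5PO mark the chain, its terminal oxidase and the synthase, and UQCRH was the member lower in both comparisons with control. COX7B passed the test in no comparison. The sequences are the 250 bases before the start site in RefSeq (GRCh38.p14), 5′ to 3′ on the gene's strand. Capitals mark matches to the motifs listed after them. CYCS lies on chr7:25125261-25125510 (minus strand), COX7B on chrX:77899218-77899467 (plus), ATP5PO on chr21:33915805-33916054 (minus) and UQCRH on chr1:46303448-46303697 (plus).
CYCS: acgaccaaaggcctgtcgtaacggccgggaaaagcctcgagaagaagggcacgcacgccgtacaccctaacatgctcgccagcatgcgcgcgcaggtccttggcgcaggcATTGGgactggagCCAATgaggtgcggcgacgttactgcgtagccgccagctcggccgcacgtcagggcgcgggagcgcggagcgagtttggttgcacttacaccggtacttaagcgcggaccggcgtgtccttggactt
COX7B: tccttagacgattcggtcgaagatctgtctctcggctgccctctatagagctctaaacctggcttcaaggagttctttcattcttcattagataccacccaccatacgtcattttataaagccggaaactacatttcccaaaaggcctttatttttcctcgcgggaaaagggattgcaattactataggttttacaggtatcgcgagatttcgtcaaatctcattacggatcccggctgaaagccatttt
ATP5PO: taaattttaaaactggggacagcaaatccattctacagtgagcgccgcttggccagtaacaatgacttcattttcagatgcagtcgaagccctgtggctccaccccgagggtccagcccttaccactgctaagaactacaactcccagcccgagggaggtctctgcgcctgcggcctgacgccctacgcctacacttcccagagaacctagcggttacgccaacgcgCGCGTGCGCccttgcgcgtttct
UQCRH: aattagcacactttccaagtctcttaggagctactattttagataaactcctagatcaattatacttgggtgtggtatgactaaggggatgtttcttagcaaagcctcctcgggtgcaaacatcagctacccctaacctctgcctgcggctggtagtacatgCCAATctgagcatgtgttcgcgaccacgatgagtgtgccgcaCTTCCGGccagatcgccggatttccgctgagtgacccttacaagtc

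The motifs searched, on both strands of the 300 bases that run from 250 before to 50 after the start, were GCGCANGCG for NRF1, CCGGAAG for ETS factors such as GABPA, AAGATGGCG for YY1, GGGCGG for Sp1 and CCAAT for NF-Y. NRF1 and GABPA are transcription factors known to act on many respiratory chain genes. CYCS held CCAAT at base -140 on the minus strand and at -127 on the plus strand. ATP5PO held the NRF1 motif at -23, with the Sp1 motif at base 28 past the start, and UQCRH the ETS motif at -46 and CCAAT at -88. In COX7B the 1 match, CCAAT at base 35, lies past the start and outside the printed stretch. A promoter was listed for 67 of the 82 members, and the NRF1 motif stood in 31.3% of them, against 11.02% of 15843 protein-coding promoters of the same length. The other shares were 28.4% of member promoters against 14.2% of all for ETS, 10.4% against 2.74% for YY1, 58.2% against 58.5% for Sp1 and 37.3% against 36.4% for NF-Y. A match describes letters in a window and not a bound site.

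The first question was what 3 days of doxycycline did to these genes. Most members lay below control and only 1 passed the test. UQCRH, the hinge protein of complex III that sits beside cytochrome c1, fell by 0.73 ± 0.16 on the log2 scale (SE; limma, adjusted p = 0.0461). That is 1 of 74 members, where 0.359% of all genes tested were called lower, and 0 members were called higher, where 1.71% of all genes were. The median difference of the members was -0.22, against 0.01 over all genes tested, and 66 of 74 lay below 0, against 48.1% of all genes. In 28 members every doxycycline array lay below every control array, against 11.1% of all genes, and in 4 (COX6A1, NDUFA10, SDHA and UQCRC1) every one lay above, against 15.3%. Without doxycycline replicate 2, 0 members were called (0.302% of all genes were called lower and 1.63% higher), the median was -0.14, and 61 of 74 lay below 0, against 46.8% of all genes. The single call was lost when any array other than doxycycline replicate 1 was left out, and without that replicate 26 members were called. The share of all genes called without that replicate is not given here, so the 26 is not read as a result about the members.

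**Figure D1:**
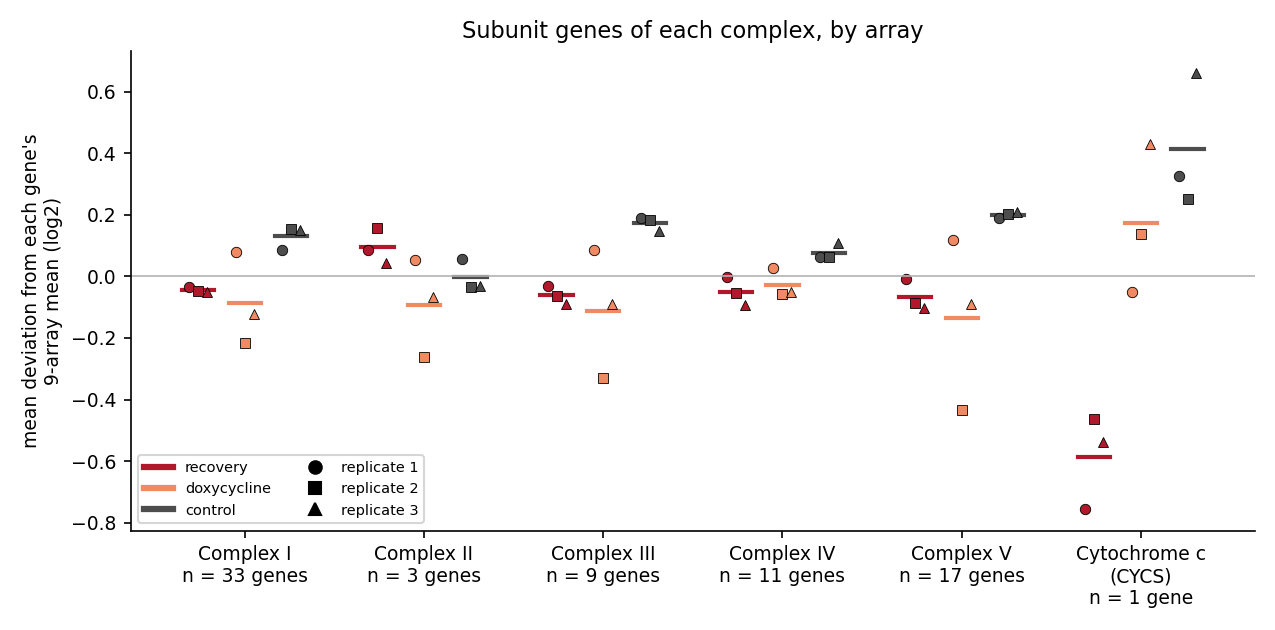
Mean over the measured genes of each complex of their deviation from their own 9-array mean (vertical axis, log2 units), for recovery, doxycycline and control arrays; points are arrays and bars group means. For complex V the 3 control arrays sit between 0.19 and 0.21, above every other array, and doxycycline replicate 2 is lowest, at -0.43.

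By complex, the medians of the difference between doxycycline and control were -0.20 for complex I, -0.27 for complex II, -0.26 for complex III, -0.02 for complex IV and -0.38 for complex V. Leaving out doxycycline replicate 2 gave -0.16, -0.10, -0.14, -0.07 and -0.19. Complex V stood lowest with all arrays: all 17 measured ATP synthase genes lay below 0, and 15 of 17 without doxycycline replicate 2. Its mean deviation was -0.13 ± 0.28 in doxycycline and 0.20 ± 0.01 in control cells (SD, n = 3 each), and single doxycycline arrays lay at 0.12, -0.43 and -0.09. Doxycycline replicate 1 thus lay close to control and replicate 2 far below it, and the complexes' differences from each other were not tested.

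Doxycycline replicate 2 was the lowest of the 3 doxycycline arrays in 52 of 74 members, against 46.1% of all genes, and the lowest of all 9 arrays in 45, against 28.2%. It was the highest of the 3 in 8 members (COX5B, COX6A1, COX6C, COX7A2, COX8A, NDUFA10, NDUFB9 and SDHA), against 39.5% of all genes. Of these 8, 5 belong to complex IV. Relative to the control mean, the median member lay at -0.06, -0.41 and -0.22 on doxycycline replicates 1, 2 and 3, and at -0.12, -0.16 and -0.22 on the recovery replicates. The recovery arrays thus lay close together, and the doxycycline arrays did not. The median within-group SD over all genes was 0.119 for recovery, 0.217 for doxycycline and 0.117 for control.

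The second question was what was seen 3 days after the drug was withdrawn. Members again lay mostly below control, and 6 fell: CYCS, UQCRH, ATP5PO and the complex I accessory subunits NDUFA13, NDUFS5 and NDUFA1. This is 6 of 74 members, where 9.06% of all genes tested were called lower, a share close to that of the members, and 0 were called higher, where 10.2% of all genes were. The median difference was -0.20, against -0.01 over all genes, and 63 of 74 members lay below 0, against 50.9% of all genes. In 41 members every recovery array lay below every control array, against 23.5% of all genes, and in 3 (NDUFA9, SDHA and UQCRC1) every one lay above, against 23.6%. Without doxycycline replicate 2 the recovery and control values are the same, and the spread that limma shares over the groups is smaller: 19 members were then called lower, where 15.2% of all genes were, and 1, SDHA, higher, where 16% were. The count was 13 without doxycycline replicate 1, and it was 1 to 3 when any 1 control or recovery array was left out. For these fits the shares of all genes called are not given here, so the counts are not read as results about the members. The medians were -0.20, 0.12, -0.22, -0.08 and -0.27 for complexes I to V.

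Recovery and doxycycline cells were then compared. CYCS and NDUFB9, an accessory subunit of the membrane arm of complex I, fell, where 9.69% of all genes were called lower, and NDUFA9, an accessory subunit that stabilises the joint between the arms of complex I, rose, where 8.71% were called higher. The median of the members was 0.05, against -0.01 over all genes, and 32 of 74 lay below 0, against 51.2%. In 11 members every recovery array lay below every doxycycline array, against 18.1% of all genes, and in 7 every one lay above, against 17.3%. Without doxycycline replicate 2, CYCS alone was called lower (11.4% of all genes were) and NDUFA9 alone higher (10.1% were), the median was -0.03, and 44 of 74 lay below 0, against 51.9%. Only 1 member was called without any 1 control array, any 1 recovery array or doxycycline replicate 3, and 13 were called without doxycycline replicate 1. The F-test over the 3 groups called 8 members, ATP5F1E, ATP5PO, CYCS, NDUFA11, NDUFA13, NDUFS5, UQCRB and UQCRH, where 22.4% of all genes were called. That count was 1 to 3 without any 1 control array, any 1 recovery array or doxycycline replicate 3, 32 without doxycycline replicate 1 and 15 without doxycycline replicate 2. For the F-test without 1 array, and for the 13 above, the shares of all genes called are not given here. Those counts are not read as results about the members.

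**Figure D2:**
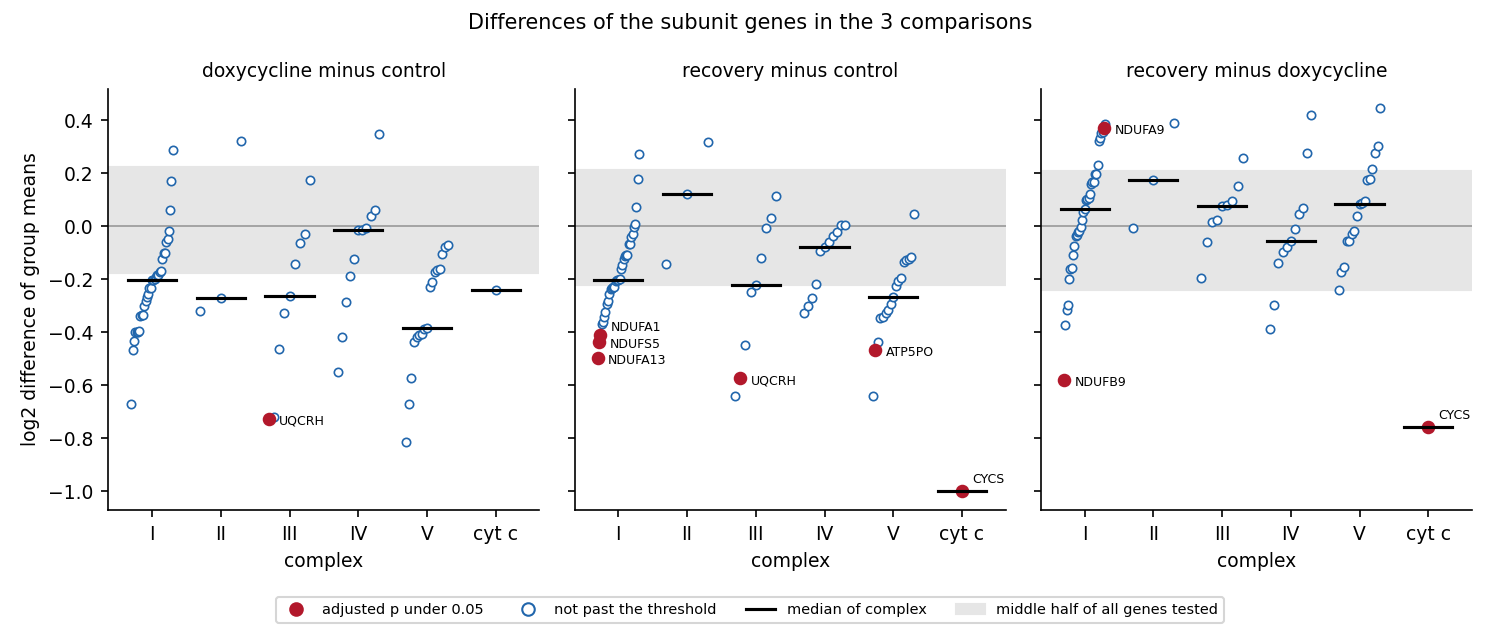
Log2 difference of group means for each measured gene (points), by complex, in the 3 comparisons; filled points passed adjusted p under 0.05, bars are the median of each complex and the grey band runs over the central quartiles of all genes tested. All 17 complex V genes lie below 0 in doxycycline minus control, and CYCS lies lowest in both comparisons of recovery, at -1.0 and -0.76.

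CYCS, cytochrome c, is the small soluble carrier between complexes III and IV and, once released from mitochondria, an activator of caspases. The gene lies on chr7:25118656-25125260 in RefSeq (GRCh38.p14), and it had 1 probe. It read 5.83, 6.12 and 6.04 log2 units on the recovery arrays, 6.53, 6.72 and 7.01 on the doxycycline arrays, and 6.91, 6.84 and 7.24 on the control arrays. All 3 recovery arrays lay below all other arrays, while doxycycline and control arrays overlapped. Recovery cells averaged 6.0 ± 0.15 and control cells 7.0 ± 0.22 (SD, n = 3 each), a difference of -1.0 ± 0.16 (SE), or 2.0-fold lower, with limma's adjusted p = 0.00107. Against doxycycline cells, at 6.75 ± 0.24, CYCS differed by -0.76 ± 0.16 (adjusted p = 0.0073). Both calls held in all 21 alternative settings, with adjusted p from 9.95e-05 to 0.00731 for the first and from 8.91e-05 to 0.0374 for the second. Doxycycline against control gave -0.24 ± 0.16 (95% interval -0.59 to 0.11, adjusted p = 0.362).

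**Figure D3:**
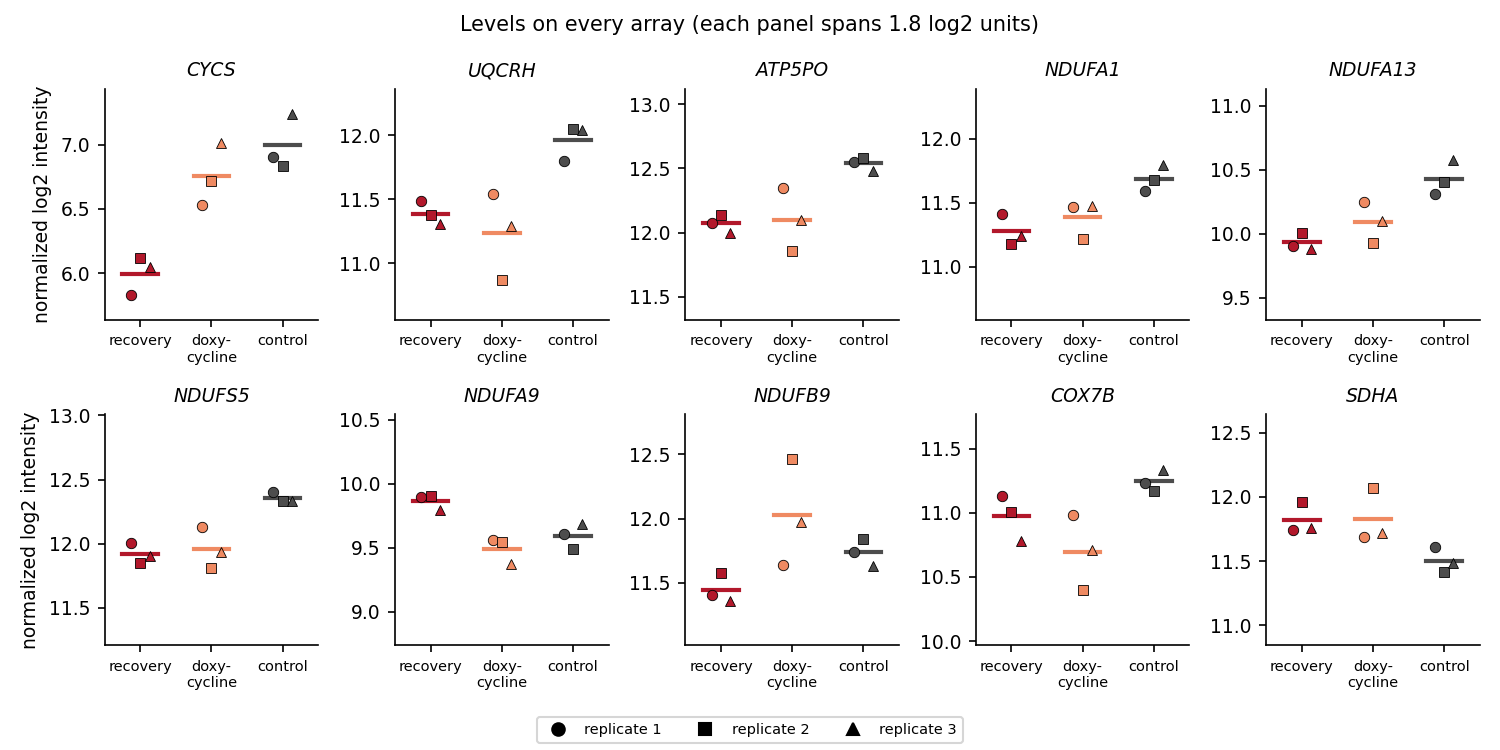
Normalized log2 intensity of 10 members (vertical axis, 1.8 log2 units in each panel) on every array, by group; shapes are replicate numbers and bars group means. CYCS is lowest on the 3 recovery arrays, UQCRH and ATP5PO are highest on the 3 control arrays, and doxycycline replicate 2 is often the outermost doxycycline array.

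Complex I, NADH dehydrogenase, takes electrons from NADH. Of its 33 measured genes, 30 lay below 0 in doxycycline against control and 29 in recovery against control. NDUFA13, also known as GRIM-19, an accessory subunit needed for assembly of the complex, read 9.91, 10.01 and 9.88 log2 units on recovery arrays, 10.25, 9.93 and 10.10 on doxycycline arrays and 10.31, 10.41 and 10.58 on control arrays. Recovery and doxycycline arrays both lay below all control arrays and overlapped each other. It fell by 0.50 ± 0.13 in recovery cells against control (adjusted p = 0.0166), and its difference in doxycycline cells was -0.34 ± 0.13 (adjusted p = 0.15; -0.25 and 0.291 without doxycycline replicate 2).

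NDUFS5, a small accessory subunit on the intermembrane-space side, read 12.001, 11.85 and 11.91 on recovery arrays, 12.13, 11.81 and 11.93 on doxycycline arrays and 12.40, 12.33 and 12.33 on control arrays. NDUFA1, a small membrane-bound accessory subunit encoded on the X chromosome, read 11.41, 11.18 and 11.24 on recovery arrays, 11.47, 11.21 and 11.47 on doxycycline arrays and 11.59, 11.68 and 11.80 on control arrays. In both genes the control arrays lay above all others, and recovery and doxycycline arrays overlapped. NDUFS5 fell by 0.44 ± 0.12 in recovery cells against control (adjusted p = 0.0232) and NDUFA1 by 0.41 ± 0.12 (adjusted p = 0.0398), and their doxycycline differences from control were -0.40 (adjusted p = 0.0968) and -0.30 (adjusted p = 0.181). These differences were -0.33 and -0.22 without doxycycline replicate 2, and the 3 recovery calls were kept, with adjusted p = 0.00393 for NDUFA13, 0.00549 for NDUFS5 and 0.0103 for NDUFA1.

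NDUFA9 ran another way. It read 9.90, 9.90 and 9.80 on recovery arrays, 9.56, 9.54 and 9.38 on doxycycline arrays and 9.61, 9.49 and 9.68 on control arrays. The recovery arrays lay above all other arrays, and doxycycline and control arrays overlapped. It rose by 0.37 ± 0.11 in recovery cells against doxycycline cells (adjusted p = 0.042; 0.40 and 0.0265 without doxycycline replicate 2), and its difference from control was 0.27 ± 0.11 (adjusted p = 0.122). The call held in 10 of 21 alternatives.

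NDUFB9 read 11.40, 11.57 and 11.36 on recovery arrays, 11.64, 12.46 and 11.97 on doxycycline arrays and 11.74, 11.84 and 11.63 on control arrays. The recovery arrays were lowest, and doxycycline replicate 2 was the highest of all. It fell by 0.58 ± 0.18 in recovery against doxycycline cells (adjusted p = 0.0454), and without doxycycline replicate 2 the difference was -0.36 ± 0.13 (adjusted p = 0.0698). The call was also lost without doxycycline replicate 3 or any 1 control or recovery array, and it held in 9 of 21 alternatives. In doxycycline against control its difference was 0.29 ± 0.18 (adjusted p = 0.342), the largest above 0 in the complex, and 0.068 without doxycycline replicate 2.

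The 6 measured core subunits of complex I, among them those that hold the flavin and the iron-sulfur clusters, were not called in any comparison. All 6 lay below 0 in doxycycline against control, with a median of -0.22, and in recovery against control, with a median of -0.17. NDUFS1, the largest iron-sulfur subunit, had the lowest doxycycline difference of the complex, -0.67 ± 0.20 (adjusted p = 0.0968; -0.53 and 0.2 without doxycycline replicate 2), and the highest of the complex in recovery against doxycycline, 0.39 ± 0.20 (adjusted p = 0.199; 0.25 without it). NDUFV1, which binds NADH, had the core difference closest to 0 in doxycycline against control with all arrays, -0.06 ± 0.12. Without doxycycline replicate 2 it was -0.08, and NDUFV2 was closest to 0, at -0.03. In recovery against control NDUFV1 lay at -0.26, with every recovery array below every control array. The 27 measured accessory subunits had medians of -0.20 in both comparisons with control. The doxycycline medians were -0.13 for core and -0.18 for accessory genes without doxycycline replicate 2.

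Complex II, succinate dehydrogenase, is the link to the citrate cycle and is wholly encoded in the nucleus. Its 3 measured genes were not called in any comparison with all arrays. SDHA, the catalytic flavoprotein, read 11.74, 11.96 and 11.76 on recovery arrays, 11.69, 12.07 and 11.72 on doxycycline arrays and 11.61, 11.41 and 11.49 on control arrays. Every recovery and every doxycycline array lay above every control array. The differences from control were 0.32 ± 0.13 for recovery (adjusted p = 0.128; 0.0336 without doxycycline replicate 2, where SDHA rose) and 0.32 ± 0.13 for doxycycline (adjusted p = 0.184; 0.20 and 0.397 without that array). The membrane anchors SDHC and SDHD had recovery differences from control of -0.14 and 0.12 and doxycycline differences of -0.32 and -0.27. Leaving out doxycycline replicate 2 gave doxycycline differences of -0.097 and -0.11. SDHD was highest of the complex in recovery against doxycycline, at 0.39 (adjusted p = 0.101; 0.23 without that array), and neither gene separated recovery or doxycycline arrays from control arrays.

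Complex III, the cytochrome bc1 complex, held the member called in both comparisons with control. UQCRH read 11.48, 11.38 and 11.30 on recovery arrays, 11.54, 10.87 and 11.29 on doxycycline arrays and 11.80, 12.05 and 12.04 on control arrays. The control arrays lay above all others, and recovery and doxycycline arrays overlapped. Recovery cells averaged 11.39 ± 0.09, doxycycline cells 11.23 ± 0.34 and control cells 11.96 ± 0.14 (SD, n = 3 each). The fall in recovery against control was 0.57 ± 0.16, or 1.49-fold (adjusted p = 0.03). In doxycycline against control it was 0.73 ± 0.16, or 1.65-fold, and without doxycycline replicate 2 it was 0.54 ± 0.12 with adjusted p = 0.0547, past the threshold no longer. A second probe of UQCRH, in a fit over all 22039 kept probes, read -0.70 in both comparisons, with adjusted p = 0.0353 for recovery and 0.0934 for doxycycline. In that fit the brightest probe had adjusted p = 0.0584 for doxycycline.

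UQCRB, a small subunit at the ubiquinone-binding region, had differences close to those of UQCRH. It read 7.61, 7.43 and 7.38 on recovery arrays, 7.88, 6.84 and 7.47 on doxycycline arrays and 8.14, 8.14 and 8.06 on control arrays. Control arrays were again the highest, and recovery and doxycycline arrays overlapped. The differences from control were -0.64 ± 0.21 for recovery (adjusted p = 0.0528; 0.00223 without doxycycline replicate 2) and -0.72 ± 0.21 for doxycycline (adjusted p = 0.0939; -0.44 and 0.134 without it).

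The scaffold-like core protein UQCRC2 differed from control by -0.45 (recovery) and -0.46 (doxycycline), with adjusted p = 0.0512 and 0.11, and its doxycycline value was -0.29 without doxycycline replicate 2. UQCRC1, its partner in the complex, lay on the other side of 0, at 0.11 and 0.17, and CYC1, cytochrome c1, at 0.03 and -0.06. UQCRHL, the near copy of UQCRH, had -0.25 and -0.33. None of these 4 was called with all arrays. Without doxycycline replicate 2, limma called UQCRC2 (adjusted p = 0.0037) and UQCRHL (adjusted p = 0.049) lower in recovery against control. In recovery against doxycycline, UQCRQ, a small subunit, was lowest at -0.19 (adjusted p = 0.242), with all recovery arrays below all doxycycline arrays, and UQCR11, another, was highest at 0.26 (adjusted p = 0.458; 0.033 without doxycycline replicate 2). With all arrays, 7 of the 9 genes lay below 0 in recovery and 8 of 9 in doxycycline.

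Complex IV, cytochrome c oxidase, had 0 members called in any comparison with all arrays, and its medians lay nearest 0 in doxycycline against control. COX7B, a small membrane subunit on chrX:77899468-77907376, read 11.13, 11.01 and 10.78 on recovery arrays, 10.98, 10.40 and 10.71 on doxycycline arrays and 11.23, 11.17 and 11.34 on control arrays. Control arrays lay above all others, and recovery and doxycycline arrays overlapped. The differences from control were -0.27 ± 0.16 for recovery (95% interval -0.61 to 0.07, adjusted p = 0.261) and -0.55 ± 0.16 for doxycycline (interval -0.89 to -0.21, adjusted p = 0.0888; -0.40 and 0.162 without doxycycline replicate 2).

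COX6A1, a subunit with a muscle counterpart that was not detected, was the complex IV gene highest above control in doxycycline cells. It read 11.98, 11.92 and 11.98 on recovery arrays, 12.06, 12.74 and 12.24 on doxycycline arrays and 12.03, 11.94 and 12.03 on control arrays. Doxycycline replicate 2 was far above the rest. The doxycycline difference from control was 0.35 ± 0.16 (adjusted p = 0.21), and 0.15 ± 0.10 without that array. In recovery against doxycycline it was lowest of the complex, at -0.39 (adjusted p = 0.114; -0.19 without that array).

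COX7A2L, a factor that joins complexes III and IV into supercomplexes, went the other way on the same array, with 11.71, 11.02 and 11.45 on doxycycline arrays, between 11.76 and 11.89 on recovery arrays and between 11.78 and 11.83 on control arrays. Its difference was 0.42 ± 0.16 in recovery against doxycycline (adjusted p = 0.0852) and -0.42 ± 0.16 in doxycycline against control (adjusted p = 0.151). Leaving out doxycycline replicate 2 gave 0.24 ± 0.11 and -0.23 ± 0.11. COX4I1, the ubiquitous form of the regulatory subunit IV, lay at 0.00 ± 0.11 in recovery against control (95% interval -0.23 to 0.24). COX7C and COX6C had the lowest recovery values of the complex, -0.33 and -0.30, with adjusted p = 0.093 for both, and both were called without doxycycline replicate 2.

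Complex V, the ATP synthase, pairs a rotating ring in the membrane with a catalytic head, and a peripheral stalk holds the head still. ATP5PO, the subunit that fixes the stalk to the head, lies on chr21:33903453-33915804. It read 12.08, 12.14 and 11.998 on recovery arrays, 12.35, 11.86 and 12.10 on doxycycline arrays and 12.55, 12.58 and 12.48 on control arrays. Control arrays lay above all others, and recovery arrays fell within the range of the doxycycline arrays. It fell by 0.47 ± 0.13 in recovery cells, or 1.38-fold (adjusted p = 0.0312; 0.00477 without doxycycline replicate 2), and its doxycycline difference was -0.44 ± 0.13 (adjusted p = 0.104; -0.31 and 0.184 without that array). The recovery call held in 15 of 21 alternatives.

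In the head, ATP5F1E, the epsilon subunit of the central stalk, had the lowest value of the 74 members in doxycycline cells. It read 9.00, 8.81 and 8.84 on recovery arrays, 9.21, 8.21 and 8.71 on doxycycline arrays and 9.40, 9.46 and 9.71 on control arrays. Control arrays were the highest, and recovery and doxycycline arrays overlapped. The differences from control were -0.64 ± 0.21 for recovery (adjusted p = 0.0505; 0.00522 without doxycycline replicate 2) and -0.81 ± 0.21 for doxycycline (adjusted p = 0.0673; 0.101 without it). ATP5F1A and ATP5F1B, which form the catalytic hexamer, lay closer to 0 than ATP5F1E by their brightest probes. They differed from control by -0.13 and -0.13 in recovery and -0.08 and -0.07 in doxycycline cells. The doxycycline values were 0.06 and 0.04 without doxycycline replicate 2. For ATP5F1A every recovery array still lay below every control array. A second ATP5F1A probe read -0.23 ± 0.14 in both comparisons with control, and it was not called.

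The c ring, whose identical mature subunits come from 3 genes, showed different values by gene. ATP5MC3 read 7.88, 7.75 and 7.70 on recovery arrays, 7.82, 6.71 and 7.47 on doxycycline arrays and 8.03, 7.92 and 8.05 on control arrays, with doxycycline replicate 2 far below the rest. Its recovery difference from doxycycline cells was 0.45 ± 0.22 (adjusted p = 0.185), and 0.14 ± 0.12 without that array. ATP5MC1, by its brightest probe, instead had its lowest values on the recovery arrays, 11.25, 11.27 and 11.24. It read 11.55, 11.34 and 11.59 on doxycycline and 11.45, 11.71 and 11.63 on control arrays. Its recovery difference from control was -0.34 ± 0.12 (adjusted p = 0.0661; 0.0195 without doxycycline replicate 2). A dimmer second probe of ATP5MC1 was lowest in doxycycline cells instead. That probe differed from control by -0.21 ± 0.21 in recovery and -0.34 ± 0.21 in doxycycline cells. In recovery against doxycycline it read 0.12 ± 0.21, so the probes differ in sign there.

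The medians of the 4 peripheral stalk genes were -0.34 in recovery and -0.29 in doxycycline cells against control. The 5 other membrane subunits had -0.21 and -0.38. Leaving out doxycycline replicate 2 gave doxycycline medians of -0.17 for the stalk and -0.22 for the other membrane subunits. ATP5ME, which helps the synthase form dimers, was the 1 ATP synthase gene above 0 in recovery against control by its brightest probe, at 0.05 ± 0.13, while its second probe fell by 0.56 ± 0.15 (adjusted p = 0.0275 over all probes). Of the 18 members with several kept probes, the sign differed between probes for 4 in recovery against control, ATP5ME, ATP5PD, NDUFA10 and NDUFV3, and for 1, NDUFA10, in doxycycline against control. In recovery against doxycycline it differed for 6: ATP5MC1, ATP5ME, NDUFA10, NDUFB3, UQCR10 and UQCRH. A second probe of ATP5PB, the b subunit of the stalk, also fell in recovery against control, by 0.71 ± 0.13 (adjusted p = 0.00413). The brightest read -0.35 ± 0.14 (adjusted p = 0.117) in the same fit over all probes. There a second probe of ATP5F1D was called too, at -0.50 (adjusted p = 0.049), and its brightest was not (adjusted p = 0.09). That fit did not call NDUFA1 in recovery against control (adjusted p = 0.0574). Nor did it call NDUFA9 or NDUFB9 in recovery against doxycycline (adjusted p = 0.067 and 0.0608).

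Ribosomal protein genes were set beside the chain, since mitochondrial ribosomes make its other subunits. In doxycycline against control, 75 of 76 mitochondrial ribosomal protein genes lay below 0, with a median of -0.25, and 60 of 72 cytosolic ones, with a median of -0.31, beside -0.22 for the respiratory chain genes. In recovery against control the medians were -0.12 and -0.24, beside -0.20. In recovery against doxycycline they were 0.16 and 0.03, beside 0.05. Leaving out doxycycline replicate 2 changed the doxycycline medians to -0.13 and -0.21, beside -0.14. Ribosomal protein genes thus also lay below 0 against control, and doxycycline replicate 2 was their lowest array, at -0.40 for the mitochondrial and -0.32 for the cytosolic group in mean deviation.

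**Figure D4:**
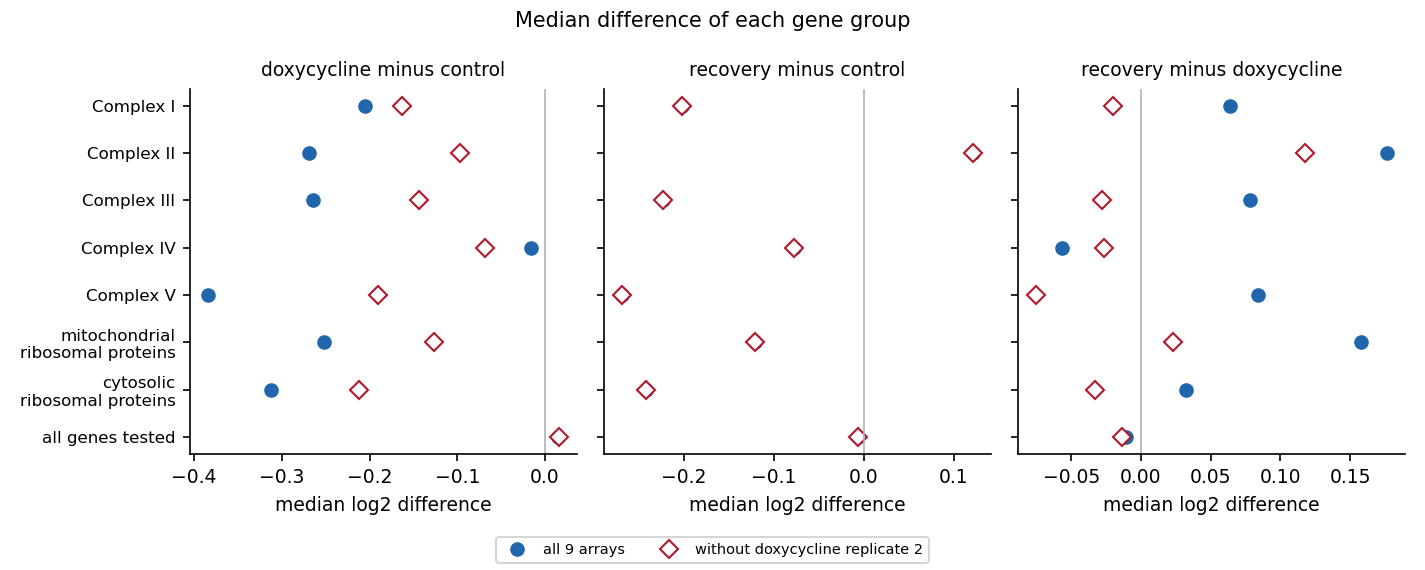
Median log2 difference of each gene group (horizontal axis) in the 3 comparisons, with all 9 arrays (filled) and without doxycycline replicate 2 (open). In doxycycline minus control, complex V moves to -0.19 from -0.38 and the mitochondrial ribosomal proteins to -0.13 from -0.25, while medians of recovery minus control stay where they were.

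Genes that build or regulate the chain were examined next, in lists compiled with earlier results known. Of 45 measured assembly factors (46 listed), 0 passed in doxycycline against control, while 5 fell and 1 rose in recovery against control, and 2 fell and 3 rose in recovery against doxycycline. Over all genes, 9.06% were called lower and 10.2% higher in recovery against control, and 9.69% and 8.71% against doxycycline. Without doxycycline replicate 2, 7 assembly factors fell and 4 rose against control, where 15.2% and 16% of all genes were called lower and higher. Against doxycycline 3 fell and 3 rose in that fit, where 11.4% and 10.1% of all genes were called lower and higher. LYRM7, a chaperone that keeps the Rieske protein of complex III ready for insertion, read 7.82, 7.76 and 7.93 on recovery arrays, 8.78, 8.85 and 8.86 on doxycycline arrays and 8.74, 9.02 and 8.84 on control arrays. It fell by 1.03 ± 0.12 against control (adjusted p = 8.93e-05) and by 1.00 ± 0.12 against doxycycline cells (adjusted p = 0.000193), and its recovery arrays lay below all others. SCO2, a copper chaperone of complex IV, read 10.14, 10.02 and 9.85 on recovery arrays, 9.54, 9.11 and 9.39 on doxycycline arrays and 9.39, 9.20 and 9.34 on control arrays, and it rose by 0.69 ± 0.14 against control (adjusted p = 0.00461). COX20, which guides a core complex IV subunit, fell by 0.52 ± 0.14 against control (adjusted p = 0.0224), and COX11, another copper chaperone, rose by 0.80 ± 0.16 in recovery against doxycycline (adjusted p = 0.0067). The calls named for these 4 genes were kept without that array, and COX11 differed by 0.62 ± 0.13 (adjusted p = 0.00668).

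Among 17 measured regulators of mitochondrial genes (18 listed), 0 passed in either comparison with control with all arrays. Without doxycycline replicate 2, 1 of them, PPRC1, rose in recovery against control, by 0.31 ± 0.10 (limma, adjusted p = 0.0332). There 16% of all genes were called higher. MTERF1, a mitochondrial transcription termination factor, rose by 0.37 ± 0.11 in recovery against doxycycline (adjusted p = 0.0425; 0.33 ± 0.11 and 0.0507 without doxycycline replicate 2). The factors whose motifs were searched had recovery and doxycycline differences from control of -0.39 and -0.33 for NRF1, which was detected on 1 recovery, 1 doxycycline and 3 control arrays, and of -0.31 and -0.41 for GABPA. The doxycycline differences were -0.21 for NRF1 and -0.27 for GABPA without that array. In the citrate cycle and pyruvate oxidation list, with 18 of 20 measured, 0 passed in doxycycline against control and 2 fell in recovery against control, where 9.06% of all genes were called lower: IDH2, mitochondrial isocitrate dehydrogenase, by 0.68 ± 0.14 (adjusted p = 0.006), and PDHB, a subunit of pyruvate dehydrogenase, by 0.41 ± 0.13 (adjusted p = 0.049). Of 19 glycolysis genes, 0 passed in doxycycline against control and 1 rose in recovery against control, where 10.2% of all genes were called higher. This was the hexokinase HK2, by 0.63 ± 0.11 (adjusted p = 0.00265). Without doxycycline replicate 2, 2 glycolysis genes rose and 4 fell in recovery against control, and 2 citrate cycle genes fell. In that fit 15.2% of all genes were called lower and 16% higher in recovery against control. PGAM1, phosphoglycerate mutase, rose by 0.46 ± 0.13 in recovery against doxycycline (adjusted p = 0.0334; 0.36 and 0.0527 without that array). The glucose transporter SLC2A1 read 9.30, 10.46 and 9.82 on doxycycline arrays, all above the 8.83 to 9.03 of control arrays, and 9.15 to 9.31 on recovery arrays. Its doxycycline difference from control was 0.97 ± 0.23 (adjusted p = 0.0555; 0.66 and 0.0533 without doxycycline replicate 2).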

How the data were processed

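RNA from 9 samples was labelled with 1 dye and measured on Illumina bead arrays. The deposited table of signals holds an intensity per probe that the authors did not normalize between arrays, and a background was already taken off, since 29.2% to 32.5% of the values per array lie below 0. Beside it, per the file headers, stands a detection p-value for each probe. A second table deposited by the authors holds intensity on the linear scale whose columns share their quantiles, with medians of 14.39 to 14.44. The software was not given in the sources used here. The coded columns of the first table were matched through titles and identical probe ranks in the second (rank correlation 1, and at most 0.962 for any other column). Every column of sample values was assigned.

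Signals were background corrected by normexp with the detection p-values (offset 16), log2 transformed and quantile normalized, and 22039 probes passed the filter (detection p under 0.05 on 3 or more arrays). Symbols came from the platform's probe annotation, which gave 30112 of 47322 probes 1 symbol, 8 several and 17202 none; those without 1 symbol are not named. Each gene took its brightest kept probe. Of the symbols that match the rule, 3 were left out: the pseudogenes ATP5F1EP2 and UQCRBP1 and the antisense RNA NDUFB2-AS1. All 9 arrays entered 1 fit with lmFit and eBayes of limma 3.58.1 (R 4.3.3; 6 residual degrees of freedom), with Benjamini-Hochberg adjustment over 12245 genes and a threshold of 0.05. The scripts were tested on simulated data, and figures were drawn with Python 3.11.15. The number of arrays limits the precision.

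Genes named are CYCS, COX7B and ATP5PO, every member called, the largest rise and fall per complex and comparison, the isoform pairs, and up to 3 genes per comparison list by smallest p; other members are given to describe a complex and were chosen after their values were seen. The members and lists were chosen with earlier results of these data known. Same-numbered arrays correlated at -0.11 to 0.10 in their deviations from group means, over 0.1 in 1 of 9 pairs, so the numbers were not taken as pairs. Alternatives were another offset, no background correction, other normalizations and filters, the deposited normalized table, probe means per gene, another prior, array weights (gene-by-gene method), a replicate block, fits of 2 groups, and leaving out each array.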

Additional observations from a re-analysis of the deposited data

How the results depend on the processing

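The count of members called in doxycycline against control (1) was 2 with an offset of 50, with median scaling and with a trended robust prior, 30 with array weights, and 0 without the filter, with the authors' processed values, with a mean over probes, with the replicate block and in a fit of the 2 groups; leaving out 1 array gave 0 to 26. In recovery against control (6) it was 12 with an offset of 50 and with the trended robust prior, 10 with a mean over probes, 24 with array weights and 22 in a fit of the 2 groups, and leaving out 1 array gave 1 to 20. The median there (-0.20) was -0.31 with median scaling, -0.18 with cyclic loess and -0.15 without the filter, and -0.21 to -0.17 without 1 array. In recovery against doxycycline (3) the count was 5 with an offset of 50 and with the trended robust prior, 16 with array weights, 1 with cyclic loess and 1 in a fit of the 2 groups, and 1 to 13 without 1 array. The F-test count (8) was 14 with an offset of 50, 5 with median scaling, 4 with the authors' processed values, 41 with array weights, 5 with the replicate block, and 1 to 32 without 1 array. The block gave 8 in recovery against control and 2 in recovery against doxycycline. The cause of these shifts was not tested. The shares of all genes called in these settings are not given here, so the counts are not read as results about the members.

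Over 41 named results and 861 values, 726 kept their side of the threshold and direction, 68 lost a call, 54 gained one and 13 changed sign, all of results not called: ATP5ME in recovery against control (-0.13 with median scaling, -0.26 with a mean over probes, -0.019 to 0.11 without 1 array), COX4I1 there (-0.19 with median scaling, -0.022 to 0.024 without 1 array), UQCRC1 there (-0.020 with median scaling), SDHA in recovery against doxycycline (0.090 with array weights, -0.075 to 0.12 without 1 array) and ATP5PO there (-0.15 to 0.094 without 1 array). Of the calls other than CYCS, the number of 21 alternatives that kept them was 17 for NDUFA13, 16 for NDUFS5, 15 for ATP5PO, 14 for UQCRH and 11 for NDUFA1 in recovery against control, 8 for UQCRH in doxycycline against control, and 10 for NDUFA9 and 9 for NDUFB9 in recovery against doxycycline.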
